A study of Danio rerio with 6 samples.

Results

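The 3 wild-type (WT) liver libraries of a zebrafish (Danio rerio) RNA sequencing series are described here, chosen by their WT label from 6 libraries in all. By their labels the fish were WT in genotype, received mifepristone, an antagonist of the progesterone and glucocorticoid receptors, and carry the time label 2 wpi. The series' design text calls this group normal liver. The other 3 libraries, from fish that carry a liver transgene for human ATG5, were not used, and no difference between the groups was tested. Mifepristone was given to every fish of the series, so the effect of the drug on these levels cannot be told apart from the untreated level. Age, sex and whether a library holds 1 fish or a pool are not given in the labels, so the spread reported below is that between these libraries and may be in part technical.

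The liver makes most of the proteins of blood plasma: lipid carriers, metal and vitamin carriers, clotting factors, complement and inhibitors of proteases. Its main cell, the hepatocyte, also releases and stores glucose, breaks down amino acids, makes bile acids from cholesterol and detoxifies foreign compounds. In zebrafish, exocrine pancreas tissue lies close to the liver, and hepatocytes of females make vitellogenin, the egg yolk precursor, under estrogen.

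Levels are CPM, the estimated count of a gene scaled to the total of its library. The totals were 36549104, 43864158 and 35151200 estimated counts in WT replicates 1, 2 and 3, where 3 counts correspond to 0.0821, 0.0684 and 0.0853 CPM. CPM is not divided by transcript length, because no transcript lengths of the authors' build were used here: the ranking is one of shares of counts, and a long transcript takes more of them than a short one present in as many copies. Of 30628 genes in the table, 13389 reached 1 CPM in all 3 libraries and 16127 in at least 1 of them.

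A small set of plasma protein genes held a large part of the WT liver counts. The most abundant gene, apoa1b, took 6.56 ± 0.358% of all counts, the 10 most abundant took 26.6 ± 1.27%, the 100 most abundant 52.9 ± 1.79% and the 1000 most abundant 81.7 ± 0.827% (SD, n = 3 libraries). On mean CPM, 79 genes reached 50% of the counts. Counted within each library, 67 genes did so in replicate 1, 89 in replicate 2 and 73 in replicate 3, so replicate 2 was the least concentrated. The order was largely shared: 9 genes were among the 10 most abundant in all 3 libraries, and 74 were among the 100 most abundant in all 3.

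**Figure D1:**
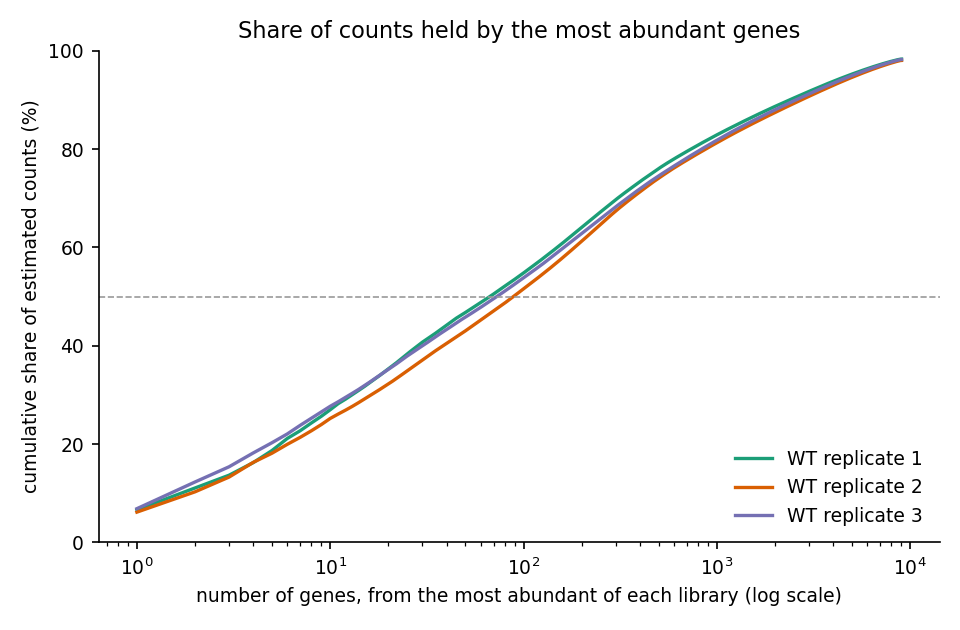
Cumulative share of the estimated counts (y axis, %) against the number of genes counted from the most abundant of each library (x axis, log scale), for genes with a mean of at least 5 CPM; each line is 1 WT library and the dashed line marks 50%. The lines cross it at 67, 89 and 73 genes in replicates 1, 2 and 3, and the line of replicate 2 runs lowest between 10 and 100 genes.

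The gene at the head of the ranking, apoa1b (ENSDARG00000101324), encodes apolipoprotein A-I, the main protein of high-density lipoprotein. It had 66324, 61657 and 68682 CPM in WT replicates 1, 2 and 3, with a coefficient of variation (CV, the SD as a percentage of the mean) of 5.45%. It was first in every library. Next came tfa, the iron carrier transferrin, with 44531, 41322 and 54342 CPM. The third was apobb.1, an apolipoprotein B gene for the structural protein of very-low-density lipoprotein, with 24559, 30007 and 30925 CPM. The fourth, apoa2, another apolipoprotein of high-density particles, had 25945, 29896 and 28128 CPM. These genes lay within 1.32-fold between the lowest and the highest library.

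The next genes mixed energy metabolism with secreted proteins. Among them were MT-CO1, a mitochondrially encoded subunit of cytochrome c oxidase (24549, 18614 and 20793 CPM), and fetub, the plasma protease inhibitor fetuin-B (25609, 14255 and 17831 CPM). Others were c3a.1, a complement C3 gene, the lipoprotein component apoc1, and FN1, the matrix and plasma protein fibronectin. Rank 11 was UCP1, an uncoupling protein of the inner mitochondrial membrane, at 13201, 6336 and 9226 CPM. Rank 12 was fabp10a, the liver fatty acid binding protein whose regulatory sequence drives the transgene of the other group of the series, at 9063, 7287 and 8807 CPM. The UCP1 values span 2.08-fold, with replicate 1 the highest and replicate 2 the lowest, whereas those of fabp10a span 1.24-fold.

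Of the 25 most abundant genes, 13 belong to the 5 lists of secreted plasma proteins, 4 are protein-coding genes of the mitochondrial genome, 2 are translation elongation factors (eef1a1l1 and eef2b) and 2, FN1 and UCP1, lie in no list. The rest include fabp10a, hpda, an enzyme of tyrosine breakdown, and BHMT, which remethylates homocysteine. Among the 100 most abundant genes, 34 were of the secreted lists, 10 were ribosomal protein genes and 10 mitochondrial genome genes. Another 17 lay in no list, among them HDLBP, an RNA-binding protein of the vigilin type, YBX1, a cold shock domain RNA-binding protein, and the ribosomal protein genes RPSA2 and RPS4Y2, which the list patterns missed.

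Grouped by 38 lists of genes of known function, each gene counted once, the lists covered 69.8 ± 0.459% of the counts (SD, n = 3). Genes with a symbol outside the lists took 26.7 ± 0.524%, and genes without a symbol 3.46 ± 0.0807%. The 5 lists of secreted proteins together took 34.4%, 31.1% and 36.0% of the counts in replicates 1, 2 and 3, a mean of 33.9 ± 2.51%. On library totals, replicate 2 was the lowest for 4 of these 5 lists, and apolipoproteins were the exception. TMM factors, which are trimmed means, rescale each library by the bulk of its genes. With them the apolipoprotein sum was also lowest in replicate 2 (144788, 141018 and 155717 CPM), as with RLE and upper-quartile factors. Totals without the 50 most abundant genes and the mitochondrial genome left it lowest in replicate 1 (10722, 17848 and 14224 CPM). There, carriers and other secreted proteins were lowest in replicate 3.

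**Figure D2:**
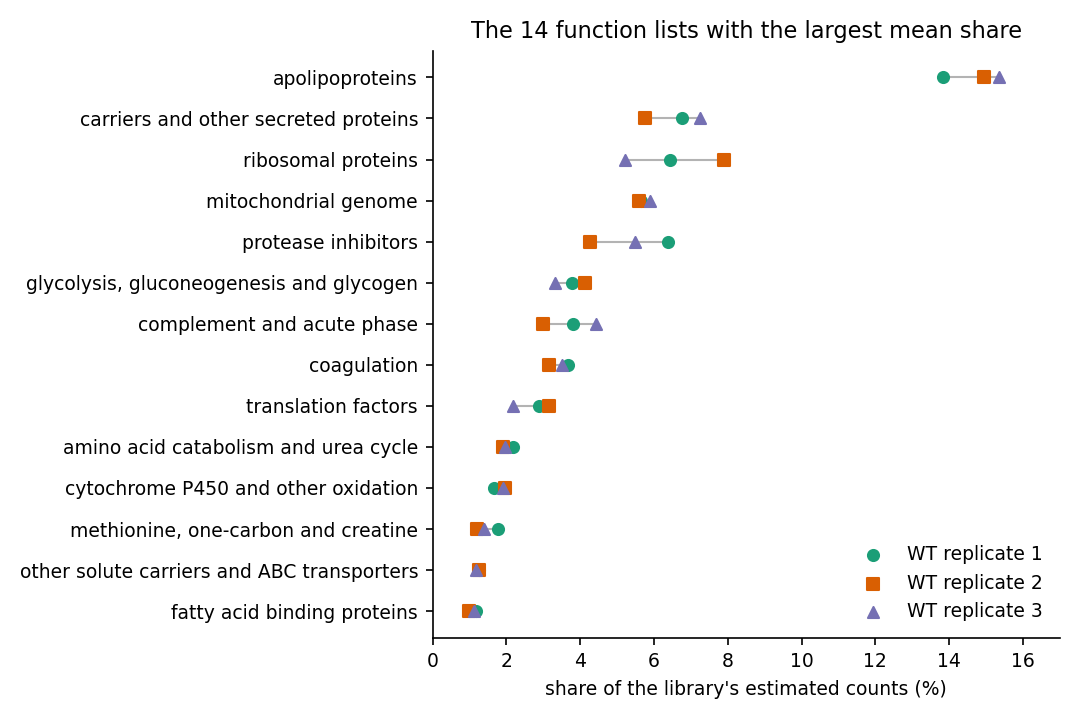
Share of each library's estimated counts (x axis, %) held by the 14 function lists with the largest mean share (rows, largest on top); each symbol is 1 WT library and the grey line spans their range. Apolipoproteins stand apart at 13.8% to 15.4%, and ribosomal proteins and protease inhibitors show wide ranges with opposite library order at replicate 2.

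Apolipoproteins were the largest list, with 13.8%, 14.95% and 15.4% of the counts. Its 4 most abundant members, apoa1b, apobb.1, apoa2 and apoc1, held 92.0% of the list. Of its 20 genes, 16 reached a mean of 5 CPM. Smaller members varied more: apoa1a, the second apolipoprotein A-I gene, had 856, 3189 and 954 CPM, so replicate 2 stood apart and high at 3.73 times the lowest. The apolipoprotein B gene apobb.2 had 317, 662 and 1145 CPM, and APOD (ENSDARG00000060350) had 0.274, 30.3 and 12.3 CPM.

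Carriers and other secreted proteins took 6.75%, 5.75% and 7.24% of the counts, and tfa alone held 71.0% of that. Ceruloplasmin (CP), the copper-binding ferroxidase, had 7950, 5394 and 5506 CPM. The heme carrier hemopexin (hpxa) had 6235, 2863 and 5222 CPM, 2.18-fold between replicates 1 and 2. The retinol carrier RBP4 had 2292, 1357 and 1550 CPM. All 3 genes were highest in replicate 1 and lowest in replicate 2.

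Coagulation genes took 3.68%, 3.15% and 3.50% of the counts and were among the steadier of the secreted lists. The fibrinogen chains fga, FGB and FGG, whose products form the clot, had CVs of 5.99%, 7.62% and 8.81%: fga had 8558, 7624 and 8344 CPM, FGB 7273, 6404 and 7379 CPM, and FGG 5848, 5116 and 6073 CPM. The 3 chains were each lowest in replicate 2. Prothrombin (f2) had 2934, 2353 and 2579 CPM.

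Complement and acute phase genes took 3.80%, 2.99% and 4.43%, and protease inhibitors 6.38%, 4.27% and 5.49%. Of the 37 complement and acute phase genes at 5 CPM or more, 17 were lowest in replicate 2, and of 20 protease inhibitor genes 13 were. Over all 9021 genes with a mean of at least 5 CPM the share lowest in replicate 2 was 23.1%. With TMM factors these counts were 21 and 15, against 3241 of 9020 genes. Among the inhibitors, serpina1l, an alpha-1 antitrypsin gene, had 7997, 5942 and 7738 CPM, and its paralogue serpina1 had 6275, 2958 and 5528 CPM. Not all inhibitors shared this order: ambp, the precursor of alpha-1 microglobulin and bikunin, was lowest in replicate 1 at 988 CPM, against 2521 and 2978 CPM in replicates 2 and 3.

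Ribosomal protein genes took 6.45%, 7.91% and 5.22% of the counts. Of the 82 at 5 CPM or more, 77 were highest in replicate 2 and 74 were lowest in replicate 3, where 47.2% of all 9021 genes were highest in replicate 2 and 33.2% lowest in replicate 3. With TMM factors the counts were 69 and 75 of 82, against 2927 and 2861 of 9020 genes. The median gap between the highest and the lowest library was 1.51-fold, against 1.38-fold over all 9021 genes. Yet only 3 of the 82 reached 2-fold, against 15% of all genes. RPS2, the most abundant, had 3057, 4391 and 2616 CPM. Translation factors took 2.87%, 3.16% and 2.18% of the counts. Their sum was lowest in replicate 3 under each scaling, but it was highest in replicate 1 with TMM (30022, 29805 and 22121 CPM), RLE or upper-quartile factors, where the sum of ribosomal protein genes stayed highest in replicate 2.

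The 13 protein-coding genes of the mitochondrial genome took 5.66%, 5.60% and 5.88%, an SD of 0.146 percentage points. None of them reached 2-fold between libraries on these totals, where 15% of all 9021 genes did. With TMM or RLE factors mt-atp8 did so, and with upper-quartile factors 1 of the 13 genes did. Their members did not move as 1 block: MT-CO3, another cytochrome c oxidase subunit, was highest in replicate 2 (4636, 7526 and 5541 CPM), whereas MT-ATP6, a subunit of ATP synthase, was highest in replicate 3 (5029, 4290 and 7117 CPM). MT-ND5 and MT-ND6, subunits of complex I, had CVs of 3.81% and 4.37%. The 107 nuclear genes of the respiratory chain together took 0.709 ± 0.0833% of the counts.

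Among the metabolic lists, glycolysis, gluconeogenesis and glycogen genes took 3.75 ± 0.409% of the counts. Amino acid catabolism and the urea cycle took 2.02 ± 0.146%, cytochrome P450 and other oxidation genes 1.84 ± 0.155%, and methionine, one-carbon and creatine genes 1.45 ± 0.283%. Cholesterol and bile acid genes took 0.478 ± 0.0210%, and fatty acid and triglyceride synthesis genes 0.413 ± 0.120%. Genes of these lists that varied little were AHCY, which hydrolyses S-adenosylhomocysteine (4739, 4620 and 4293 CPM), POR, the electron donor of microsomal cytochromes P450 (ENSDARG00000059035; 1089, 1115 and 1096 CPM), and ABCB11, the bile salt export pump (681, 683 and 648 CPM).

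At the low end, vitellogenin and egg envelope genes took 0.0282%, 0.0229% and 0.0420% of the counts, and 1 gene, vtg5, held 98.6% of that with 278, 224 and 417 CPM. The other vitellogenin genes of the list, vtg1, vtg2, vtg3, vtg4 and vtg7, stayed below 0.6 CPM in each library, and vtg6 and vtg8 had no count. The estrogen receptor gene ESR1 had 9, 18.4 and 4.74 CPM.

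Autophagy genes, the process that the series was built to perturb, took 0.116%, 0.135% and 0.124% of the counts. Zebrafish atg5 (listed as ATG5, ENSDARG00000023396), which conjugates with ATG12 in the machinery that lipidates LC3, had 8.54, 8.66 and 14.2 CPM, replicate 3 being apart and high. The cargo receptor SQSTM1 had 75.9, 82.9 and 94.0 CPM, and gabarapb, an ATG8 family member, 55.8, 59 and 58.3 CPM. Of the 45 genes of the list at 5 CPM or more, 2 reached 2-fold between libraries, against 15% of all genes. They were ATG10, an E2-like enzyme for ATG12, and BNIP3L (ENSDARG00000028067), a mitophagy receptor. Without replicate 3, 0 of the 45 did, against 8.56% of all genes.

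Spread among the WT libraries was measured for the 9021 genes with a mean of at least 5 CPM, which hold 98.2% of the counts. A gene was counted as variable where its highest library had at least 2 times the CPM of its lowest. With 1 group of 3 libraries this is a description, and no test of a difference was made. Of the 9021 genes, 1349 (15%) were variable, 436 (4.83%) reached 4-fold and 219 (2.43%) reached 10-fold. The median gene had a CV of 16.7% and lay within 1.38-fold. Of all 9021 genes, 20.1% were highest in replicate 1, 47.2% in replicate 2 and 32.7% in replicate 3, and 43.7%, 23.1% and 33.2% were lowest in them. In pairs, 8.56% of the genes reached 2-fold between replicates 1 and 2, 7.33% between 1 and 3 and 9.52% between 2 and 3. Leaving out a library leaves 1 gap per gene in place of the widest of 3. With the 5 CPM limit applied anew to the mean of the remaining libraries, the count was 887 without replicate 1, 639 without replicate 2 and 786 without replicate 3. Over the same 9021 genes it was 859, 661 and 772.

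**Figure D3:**
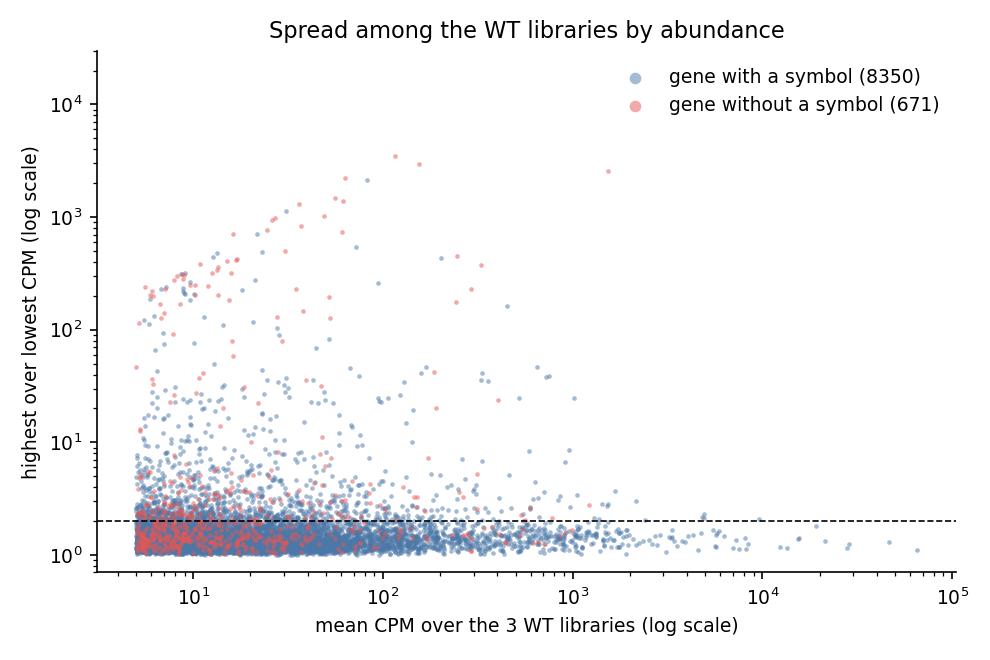
Highest over lowest CPM (y axis, log scale) against mean CPM over the 3 WT libraries (x axis, log scale) for 9021 genes; each point is 1 gene, coloured by whether the symbol table names it, and the dashed line marks 2-fold. A lowest value below 3 counts was set to 3 counts. Of the 671 genes without a symbol 262 reach 2-fold, and of the 84 genes at 100-fold or more 53 have no symbol.

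The widest ratios belonged more often to genes without a symbol. Such genes were 7.44% of the 9021, 19.4% of those at 2-fold or more, 35.6% of those at 10-fold or more and 63.1% of those at 100-fold or more. The most abundant of them, ENSDARG00000110395, had 2058 and 2561 CPM in replicates 1 and 3 and 1.01 CPM in replicate 2. Of 37 genes with no count at all in at least 1 library, 25 had no symbol. Some genes with a symbol were also near 0 in 1 or 2 of the libraries. The table's OAZ1 (ENSDARG00000071403), an inhibitor of ornithine decarboxylase, had 105, 0.205 and 110 CPM. TMBIM4 had 43.8, 0.160 and 19.5 CPM, and cyp2aa4, a cytochrome P450, had 92.2 CPM in replicate 2 and no count in the other libraries, at least 1124-fold higher in replicate 2 against 3 counts in replicate 1. The ribosomal protein gene rpl32 had 270, 10.5 and 1.03 CPM. Reads of near-identical paralogues can be split between genes in estimated counts, so values of members of such families are uncertain.

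Pancreatic genes spanned a median of 25.9-fold between libraries, against 1.38-fold over all genes. The 39 genes of the list, digestive enzymes and islet hormones, took 0.0609%, 0.319% and 0.545% of the counts in replicates 1, 2 and 3. Of the 26 at 5 CPM or more, 23 were variable, against 15% of all genes, and 24 were lowest in replicate 1, against 43.7% of all genes. Between replicates 2 and 3 alone, 12 of the 26 reached 2-fold, against 9.52% of all genes. The trypsin gene prss1 had 19.2, 377 and 673 CPM. The elastase gene CELA1 (ENSDARG00000017314) had 38.5, 571 and 946 CPM. The amylase gene amy2a had 6.89, 179 and 319 CPM. Replicate 1 was far below the others for each of these enzymes and replicate 3 was the highest.

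Islet hormone genes followed another order. Insulin (ins) had 39.8 CPM in replicate 2, no count in replicate 1 and 0.114 CPM in replicate 3, at least 485-fold higher in replicate 2 against 3 counts in replicate 1. Glucagon (gcga) had 0.109, 25.9 and 0.484 CPM, and somatostatin (SST), which the list does not hold and which was singled out after its values were seen, had 0, 25.7 and 0.0853 CPM. These hormones were thus measured at over 25 CPM in replicate 2 alone, while the digestive enzymes were high in replicates 2 and 3. The 3 genes of the list at 5 CPM or more that did not vary were amy2al1, a second amylase (377, 302 and 406 CPM), PLA2G1B, a phospholipase (42.9, 60.5 and 56.4 CPM), and prss59 (14.9, 10.8 and 12.9 CPM). In bulk liver RNA, fewer cells of a type and less RNA per cell cannot be told apart.

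The 8 globin and red cell genes at 5 CPM or more were all variable, all highest in replicate 2 and all lowest in replicate 3. Over all 9021 genes 15% were variable, 47.2% were highest in replicate 2 and 33.2% were lowest in replicate 3. The alpha-type globin hbaa1 had 161, 363 and 71.5 CPM, and the largest beta-type globin, named HBE1 in the symbol table (ENSDARG00000089087), had 273, 925 and 182 CPM. The heme synthesis enzyme of red cells, alas2, had 17.8, 47.6 and 9.17 CPM. Between replicates 1 and 3 alone, 4 of the 8 reached 2-fold, against 7.33% of all genes. Together the list took 0.0583%, 0.176% and 0.0345% of the counts. The erythrocyte markers overlap the red cell list, for example in hbaa1 and hbaa2. Of the 9 erythrocyte markers at 5 CPM or more, 8 were highest in replicate 2. The other, hemgn, was highest in replicate 3 (72.4, 77.8 and 88.8 CPM). Thrombocyte markers, 8 genes of which 1 reached a mean of 5 CPM, had summed levels of 17.4, 31.2 and 11.8 CPM. That is the order of the red cell list, but PLEK2 (4.62, 2.63 and 4.45 CPM) and the RASGRP2 genes were highest in replicate 1.

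**Figure D4:**
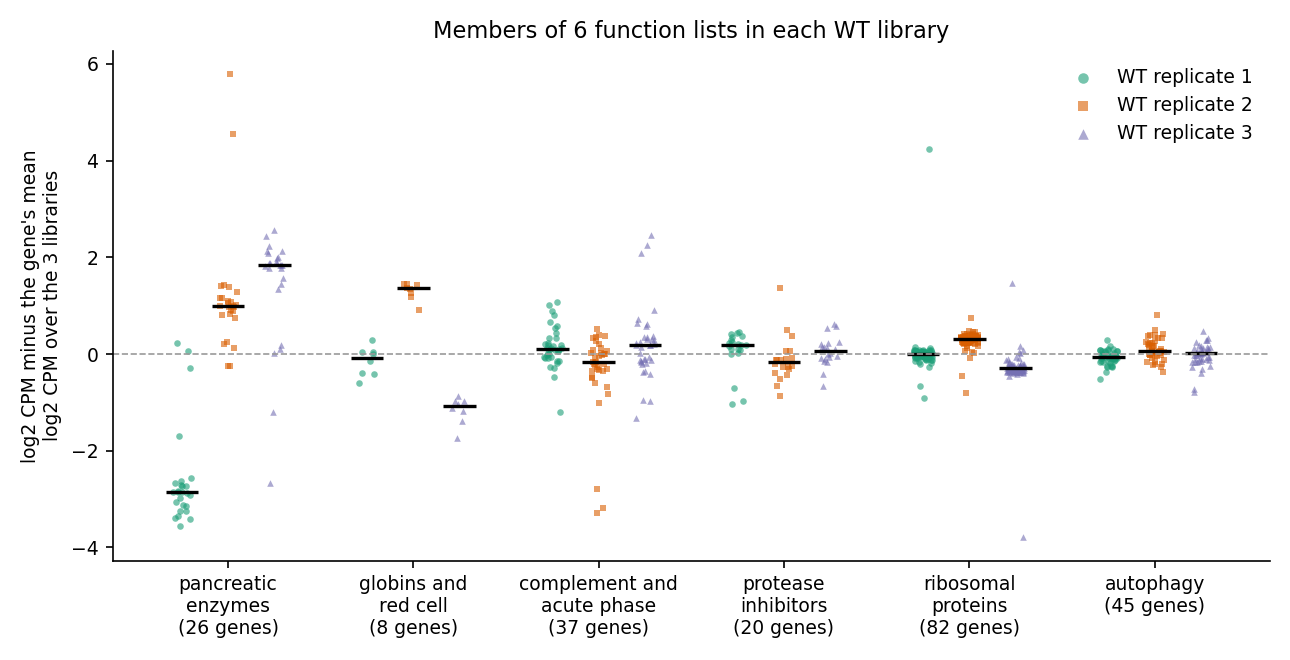
Level of each member of 6 function lists in each WT library as log2 CPM minus the gene's own mean log2 CPM over the 3 libraries (y axis); each point is 1 gene with a mean of at least 5 CPM, values below 3 counts are set to 3 counts, and black bars are medians. Pancreatic genes lie low in replicate 1, with 24 of 26 lowest there, red cell genes lie high in replicate 2 and low in replicate 3, most ribosomal protein genes lie high in replicate 2 and low in replicate 3, and autophagy genes stay near 0.

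Within complement and acute phase genes, 11 of 37 were variable, against 15% of all genes. The complement regulators cfh and cfhl4, the factor H gene and a factor H-like gene, had 568, 28.7 and 1341 CPM and 734, 38.3 and 1483 CPM, 46.8-fold and 38.7-fold from replicate 2 to replicate 3. The pentraxin apcs had 391, 45.5 and 1720 CPM. The iron-regulating peptide hepcidin (hamp) had 133, 65.5 and 179 CPM. All 4 were lowest in replicate 2 and highest in replicate 3, while the C3 gene c3a.1 spanned only 1.39-fold (15804, 12615 and 17561 CPM). Without replicate 3, 6 of the 37 were variable, against 8.56% of all genes. Summed levels of the 22 pancreas markers (151, 2081 and 3611 CPM, none of them at 0 throughout) and of the 17 erythrocyte markers (344, 707 and 206 CPM, 3 of them at 0 throughout) also differed between these libraries, and their part in this and the following results was not tested.

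Of the fatty acid and triglyceride synthesis genes, 11 of 33 were variable, in different library orders, against 15% of all genes, and 5 without replicate 3, against 8.56%. The most abundant was thrsp, a regulator of lipid synthesis that responds to thyroid hormone in mammals, with 779, 86.7 and 2164 CPM, 24.97-fold. The fatty acid elongase ELOVL6 had 2.44, 20.3 and 68.7 CPM, and the desaturase SCD had 2.24, 2.19 and 22.6 CPM. Replicate 3 was the highest for these genes. The NADPH-producing malic enzyme ME1 instead was highest in replicate 2, with 72.6, 515 and 191 CPM, as was the lipid droplet coat gene PLIN2, with 39.5, 180 and 73.3 CPM. FASN, the fatty acid synthase itself, had 69.5, 91.1 and 91.5 CPM and did not reach 2-fold.

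Among cholesterol and bile acid genes at 5 CPM or more, 17 of 43 were variable, against 15% of all genes, and 5 of 43 without replicate 3, against 8.56%. Without replicate 1 it was 12 of 43, against 9.52%, and without replicate 2 it was 13 of 43, against 7.33%. CYP7A1, the rate-limiting enzyme of bile acid synthesis, had 42.5, 7.2 and 126 CPM, and CYP7B1, an oxysterol 7-alpha-hydroxylase, had 12, 0.41 and 8.9 CPM. Both were lowest in replicate 2. The nuclear receptor for bile acids, NR1H4 (FXR), had 33.3, 9.45 and 44.1 CPM, also lowest in replicate 2. Of the sterol synthesis genes named here, FDPS and ACAT2 were high in replicate 3 (16.3, 12.2 and 86.7 CPM, and 8.26, 14.1 and 65.5 CPM), whereas HMGCS1 was low in it (53.9, 36.9 and 15 CPM). Also low in replicate 3 were ldlra and insig1, which are not synthesis enzymes (832, 630 and 324 CPM, and 99.9, 45.5 and 30.1 CPM). ldlra encodes the receptor that takes up low-density lipoprotein, and insig1 a membrane protein that holds the sterol sensor SCAP in the endoplasmic reticulum.

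Of the growth hormone and IGF axis genes, 4 of 13 were variable, against 15% of all genes, and 0 of 13 between replicates 2 and 3 alone, against 9.52%. With TMM factors 2 of 13 were variable, against 1374 of 9020 genes, and RLE and upper-quartile factors also gave 2 of 13. Totals without the 50 most abundant genes and the mitochondrial genome gave 6 of 15, against 1942 of 11497 genes. IGFBP1 (ENSDARG00000099351), a binding protein for insulin-like growth factors that insulin represses in mammals, had 353, 35.2 and 40.6 CPM, 10.03-fold, with replicate 1 apart and high. IGF1 had 101, 161 and 207 CPM, lowest in replicate 1. The 2 insulin-like growth factor 2 genes varied little: igf2a had 547, 555 and 492 CPM and igf2b 242, 258 and 246.4 CPM. Among glycolysis, gluconeogenesis and glycogen genes 5 of 48 were variable, below the 15% of all genes, and 1 of 48 without replicate 3, against 8.56%. The widest ratio was that of PCK1, the rate-limiting enzyme of gluconeogenesis, which had 2207, 786 and 1267 CPM, with replicate 1 highest and replicate 2 lowest.

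**Figure D5:**
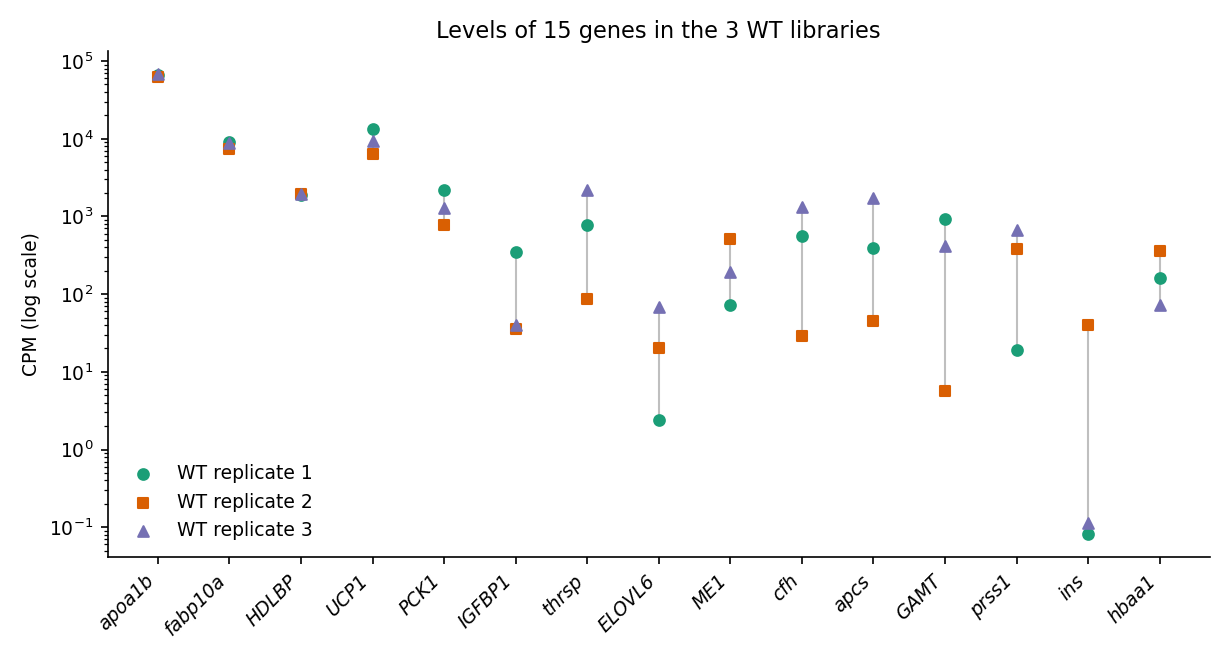
CPM (y axis, log scale) of 15 genes in the 3 WT libraries; each symbol is 1 library, grey lines join the lowest and highest, and a value below 3 counts is drawn at 3 counts (ins in replicate 1). The 3 symbols of apoa1b, fabp10a and HDLBP nearly coincide, IGFBP1 and PCK1 are highest in replicate 1, cfh, apcs, thrsp and GAMT are lowest in replicate 2, and prss1 is lowest in replicate 1.

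Of the clock and glucocorticoid response genes, 14 of 40 were variable, against 15% of all genes. Without replicate 3 it was 2 of 40, below the 8.56% of all genes. Without replicate 1 it was 13 of 40, against 9.52%, and without replicate 2 it was 6 of 40, against 7.33%. NR1D1 (REV-ERB alpha), a repressor of the circadian clock, had 31.7, 40.8 and 8.69 CPM. The table's 2 PER1 genes, also clock repressors, had 26.3, 31.1 and 8.74 CPM and 14.3, 19.0 and 5.52 CPM. All 3 were lowest in replicate 3, while nfil3-5, a gene of the NFIL3 family, was highest there (12.1, 6.75 and 33.5 CPM). FKBP5, a chaperone induced through the glucocorticoid receptor, which mifepristone blocks, had 243, 192 and 301 CPM and did not reach 2-fold.

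Other lists held single genes with wide gaps. In methionine and creatine metabolism, GAMT, which makes creatine, had 928, 5.66 and 413 CPM, 164-fold, whereas BHMT spanned 2.31-fold (7247, 3143 and 4417 CPM). Among conjugation enzymes, 18 of 53 were variable, against 15% of all genes, and 10 between replicates 1 and 3 alone, against 7.33%. They were led by the sulfotransferase sult3st3 (106, 3.78 and 37.6 CPM). Of cytochrome P450 and other oxidation genes, 28 of 96 were variable, against the same 15%, and 11 between replicates 1 and 3 alone, against 7.33%. Antigen presentation held the class I genes mhc1zba, with 233, 12 and 184 CPM, and mhc1zea, with 6.39, 64.9 and 5.12 CPM, which differed in opposite directions in replicate 2. Of the 100 most abundant genes, HDLBP varied least, with 1889, 1939 and 1932 CPM and a CV of 1.41%.

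Marker genes matched the label of liver. The 18 hepatocyte markers summed to 144425, 135091 and 150635 CPM, and each of them had a count in every library. HNF4A, a defining hepatocyte transcription factor, had 192, 175 and 138 CPM. Markers of other cell types were lower: 16 biliary markers summed to 902, 716 and 725 CPM, 28 macrophage markers to 463, 390 and 420 CPM, 21 endothelium markers to 193, 182 and 176 CPM and 25 lymphocyte markers to 16, 19 and 15.7 CPM. Cell division genes, 27 in number, summed to 28.9, 43.6 and 27.7 CPM. Stellate and fibroblast markers, 15 genes, summed to 499, 257 and 373 CPM. The collagen genes col6a1 (98.3, 6.84 and 97.1 CPM) and COL5A1 (151, 16.3 and 50.3 CPM) were low in replicate 2, whereas STEAP4 (150, 147 and 152 CPM) was level. The other collagen genes of the list were lowest in replicate 3: COL6A2 (9.96, 10.6 and 7.75 CPM), col1a1a (7.89, 6.56 and 4.87 CPM) and COL1A2 (7.14, 4.26 and 3.04 CPM). The sums of the 20 intestine markers (1420, 1934 and 2272 CPM) rested for 95.8% on apoa4b.1, a lipoprotein gene that is also on the apolipoprotein list.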

How the data were processed

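Per the labels' protocols, RNA of the WT liver samples was extracted with TRIzol and sequenced from stranded libraries of total RNA. The file that the authors deposited gives each gene an estimated count, in part with decimals. FastQC 0.11.5, kallisto 0.45.0 and sleuth 0.30.0 are named in the submitters' processing notes, as is GRCz11 as the build. Whether counting used strand is not stated there, so a gene and an overlapping antisense gene may share reads. Of 30628 genes, 23608 (77.1%) matched a symbol, upper and lower case taken as equal, and 1864 repeat the symbol of an earlier gene.

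Counts were divided by library totals to give CPM. The share limit of 3 counts covers counting error only. For the variation ratio the lowest library was held at no less than 3 counts, and no ratio is given where it had 1 to 3 counts. TMM, RLE and upper-quartile factors came from edgeR 4.0.16 in R 4.3.3 on counts rounded to whole numbers. So did the dispersion with an intercept only, whose common value gives a biological coefficient of variation of 0.366. The median of its values per gene was 0.281. Tables were made with Python 3.11.15 and pandas 2.3.3, figures with matplotlib 3.10.9. The ratio and dispersion steps were tested on simulated data that varied less between libraries than these data. For the ratio the simulation held sampling noise and planted gaps only. For the dispersion it used set values below the 0.134 found here.

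The members described and the function and marker lists were chosen with earlier results of these data known. A list of small noncoding RNA was dropped after the files were seen, because its patterns matched protein-coding genes. The rule for named genes took the 25 most abundant, the leading 4 and the most variable 2 of each list, the 20 most variable with a symbol, the 5 most stable of the 100 most abundant, the leading 3 of each marker list, and atg5; not all are named, some are not reported here, and others were chosen after their values were seen. Alternatives were other scaling factors, other level and ratio limits, leaving out a library, the mitochondrial or the most abundant genes, and handling of symbols.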

Additional observations from a re-analysis of the deposited data

How the results depend on the processing

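The shares of the 10 most abundant genes (26.1% to 27.6%) and of the 5 secreted lists (32.8% to 35.9%) stayed within their SD, and the number of genes that hold 50% of the counts (68 to 89) within 1.5 times, under each alternative run. The number of genes at 1 CPM in all 3 libraries (13389) was 7842 at 5 CPM. The number of variable genes (1349) was 3289 with a mean of at least 1 CPM, 556 with at least 20 CPM, 3311 at a ratio of 1.5 and 436 at 4. It ranged from 639 to 887 when 1 library was left out, where each gene has fewer libraries to differ and the 5 CPM limit was applied anew. TMM factors gave 1374 of 9020 genes, RLE factors 1373 of 9018 and upper-quartile factors 1358 of 9016. Totals without the 50 most abundant genes and the mitochondrial genome gave 1942 of 11497, since smaller totals raise CPM and more genes reach 5 CPM. Chosen after seeing the data, genes with a symbol only gave 1087 and rows of 1 symbol summed gave 1288. The counts of variable list members with a library left out, given beside the results, were also chosen after seeing the data. Where only 1 such count is given for a list, it is the lowest, or tied for the lowest, of those for the 3 libraries. Scaling moved which library was highest: of all genes, 4258 of 9021 were highest in replicate 2 on library totals and 2927 of 9020 with TMM. Of the named genes, 269 kept their side of 2-fold with TMM, 8 passed it and 1 (IDH1) fell below it. No paired analysis was possible because only 1 group was used. Levels per coding kilobase, the comparison limited to genes with a protein, and the promoter motifs were not run, because no protein or promoter table was used here. Precision at the low end is limited by depth: 3 counts are 0.0684 to 0.0853 CPM, and genes below 5 CPM were left out of the variable count.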

Other observations

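Several gene groups of the WT libraries fell outside the comparisons above. Hepatocyte transcription factors were low in counts, and 5 of 36 were variable, near the 15% of all genes; without replicate 3 it was 2 of 36, against 8.56%. PROX1, a homeobox factor of liver development, had 149, 146 and 163 CPM in replicates 1, 2 and 3. CEBPA, a factor that drives many plasma protein genes in mammals, was among the 5 at 27, 26.5 and 81.6 CPM, with replicate 3 apart and high. Of 27 antioxidant and metal storage genes 3 were variable, near the 15% of all genes. Without replicate 3 it was 1 of 27, against 8.56%, and without replicate 1 or replicate 2 it was 2 of 27. Catalase (CAT), which breaks down hydrogen peroxide, held 40.2% of that list's counts with 3153, 4021 and 3050 CPM, and gpx4a, which reduces lipid peroxides, had 2190, 2056 and 2762 CPM. SLC25A5, an exchanger of ADP and ATP across the inner mitochondrial membrane, had 3517, 5162 and 3525 CPM. It held 61.7% of the counts of the mitochondrial carrier list. That list does not hold UCP1, the uncoupling protein of the same membrane, which was more abundant at 13201, 6336 and 9226 CPM.

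Genes of protein folding showed a similar mix. The cytosolic chaperone HSP90AB1 had 3113, 3851 and 2688 CPM, and of 96 secretory pathway and folding genes 9 were variable, against 15% of all genes, and 2 without replicate 3, against 8.56%. PDIA4, a disulfide isomerase of the endoplasmic reticulum, was among them at 15.6, 15.3 and 60 CPM, high in replicate 3. Interferon response genes, 24 in number, summed to 205, 199 and 291 CPM. The largest, stat2, a factor of type I interferon signalling, held 32.9% of that list's counts with 54, 60.4 and 114 CPM. The causes of these gaps were not tested.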
